A study of Homo sapiens with 6 samples.

Results

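The genes examined here encode the core machinery of RNA interference: DROSHA, DGCR8, XPO5, DICER1, TARBP2, AGO1, AGO2, AGO3, AGO4 and TNRC6A. They were taken as every probe whose symbol in the platform annotation is one of these names, which gave 18 probes for 10 genes, of 48701 probes and 18833 named genes on the array. The study transfected A549 cells, an established human lung adenocarcinoma line, with an siRNA and read out messenger RNA on Illumina HumanHT-12 V3 bead arrays. Group 1 received a control siRNA, group 2 an siRNA against Snai1, a zinc-finger repressor of epithelial genes, and group 3 an siRNA against ncRNA-a7, a long noncoding RNA. Each of the 3 groups held 2 arrays, and all 6 arrays came from cells that had received an siRNA, the controls included. The siRNA sequences and the time after transfection were not used here. Nothing in the labels gives the replicates as separate cultures, so that the spread behind every p-value may be technical.

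RNA interference turns short double-stranded RNA into a guide that silences matching messenger RNAs. In the nucleus the ribonuclease DROSHA and its RNA-binding partner DGCR8 cut hairpins out of primary microRNA transcripts, and XPO5 carries the hairpins to the cytoplasm. There DICER1, with its partner TARBP2, trims them to mature length, an Argonaute protein (AGO1 to AGO4) takes up 1 strand, and a GW182 protein such as TNRC6A recruits the enzymes that shorten and decap the target. An siRNA enters this pathway at the Argonaute step, and AGO2 is the human Argonaute best known for slicing a perfectly matched target.

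Every value below is either a deposited scanner signal, linear and not normalized, or a log2 fold change computed from it after background correction with an offset of 50, quantile normalization between arrays and a limma fit over all 6 arrays. A gene was represented by its brightest probe, probes dimmer than the median probe were left out, and the call threshold was 0.05 for limma's p after Benjamini-Hochberg adjustment over all 19730 features tested. The mean signal per array ran from 715 to 914, lowest on Snai1 siRNA replicate 2, so scanner signals of that array lie low before normalization. Log2 levels of arrays in 1 group correlated at 0.991 to 0.993 across probes, and those of different groups at 0.987 to 0.989. The targeted transcripts could not be checked, because the SNAI1 and TRERNA1 probes were both below the brightness filter on these arrays. TRERNA1 is a name for ncRNA-a7 taken from general knowledge. The SNAI1 probe read 143 and 144 in control, 127 and 127 with Snai1 siRNA, and 139 and 147 with ncRNA-a7 siRNA. In the same order the TRERNA1 probe read 118 and 118, 143 and 129, and 130 and 132. Of 13 epithelial and lung adenocarcinoma markers 9 passed the filter, and NAPSA, SFTPC, NKX2-1 and AKR1C1 were below it. CDH1 and AKR1B10 were called higher with both siRNAs and KRT8 and NQO1 with ncRNA-a7 siRNA, while EPCAM was called lower with both and KRT18 with ncRNA-a7 siRNA. The KRT18 call held in only 3 of 16 alternative settings. Of 17 settings the KRT8 call held in 9, that of NQO1 in 10 and that of AKR1B10 with Snai1 siRNA in 12. Signals of the 9 were summed on the linear scale after background correction and quantile normalization. The sums were 121237 to 127328 in control, 153118 to 154982 with Snai1 siRNA and 158913 to 162281 with ncRNA-a7 siRNA. Linear sums, here and below, follow the brightest genes of a list most and do not describe the list as a whole. In that order of groups mean log2 levels were 15.17, 15.72 and 15.89 for AKR1B10. EPCAM, much dimmer, fell from 10.83 to 9.71 and 9.19 and weighs little in the sums. Of 4 leukocyte markers on the array 2 passed, and PTPRC and CD3E were below the filter. Sums of the 2, made likewise, were 273 to 291 in control, 489 to 559 with Snai1 siRNA and 531 to 543 with ncRNA-a7 siRNA. CD14 was called higher with both siRNAs and ITGAM with ncRNA-a7 siRNA. For the 3 of 5 fibroblast markers that passed, the sums were 483 to 532, 685 to 686 and 532 to 535, and COL1A2 and PDGFRB were below the filter. COL1A1 and LUM were called higher with Snai1 siRNA. Those calls held in 11 of 16 and 11 of 17 alternative settings, and a second LUM probe gave 0.19 and was not called. For the 3 of 5 endothelial markers that passed, the sums were 389 to 405, 547 to 604 and 414 to 499. ESAM was called higher with both siRNAs, and CDH5 and VWF were below the filter. The part of other cell types in the results below was not tested, and in these bulk samples fewer cells of a type and less RNA per cell cannot be told apart.

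Of the 10 transcripts of the machinery 2 were called in a comparison with control. DICER1 fell with ncRNA-a7 siRNA, by 0.71 ± 0.11 on the log2 scale (SE, n = 2 arrays per group), and AGO3 fell with Snai1 siRNA, by 0.59 ± 0.15 (SE, n = 2). No member was called higher in any comparison. With Snai1 siRNA 1 of 10 members was called, against 9.15% of all features, 4.89% higher and 4.26% lower. With ncRNA-a7 siRNA 1 of 10 was called, against 9.83% of all features, 5.73% higher and 4.11% lower. Between both targeting siRNAs 1 of 10 was called, DICER1 again, against 8.10% of all features, 4.73% higher and 3.37% lower. The members' share of calls was near the background in each comparison. With median scaling in place of quantile normalization the share of called features that were higher was 33.7% for Snai1 siRNA, 48.9% for ncRNA-a7 siRNA and 70.6% between both, against 53.4%, 58.2% and 58.4% here. At an unadjusted limma p under 0.05 the counts were 3, 3 and 2 of 10. The share of all features at that threshold was not worked out, so these counts have no background beside them.

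The median log2 fold change of the 10 members was -0.14 with Snai1 siRNA, where all features had -0.01, and -0.07 with ncRNA-a7 siRNA, where all features again had -0.01. Between ncRNA-a7 and Snai1 siRNA it was 0.07 for the members and -0.01 for all features. With Snai1 siRNA 7 of 10 members lay below 0, and 51.4% of all features did. With ncRNA-a7 siRNA 8 of 10 did, against 52.3%. Both arrays lay below both control arrays for 6 members with Snai1 siRNA (27.7% of features) and for 5 with ncRNA-a7 siRNA (27.1%), and above them for 2 (25.7%) and 1 (25.0%). Between ncRNA-a7 and Snai1 siRNA the arrays lay apart upwards for 2 members (25.3%) and downwards for 2 (25.6%). The comparisons with control share the same 2 control arrays, and the values of each are therefore given side by side and not set against each other.

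**Figure D1:**
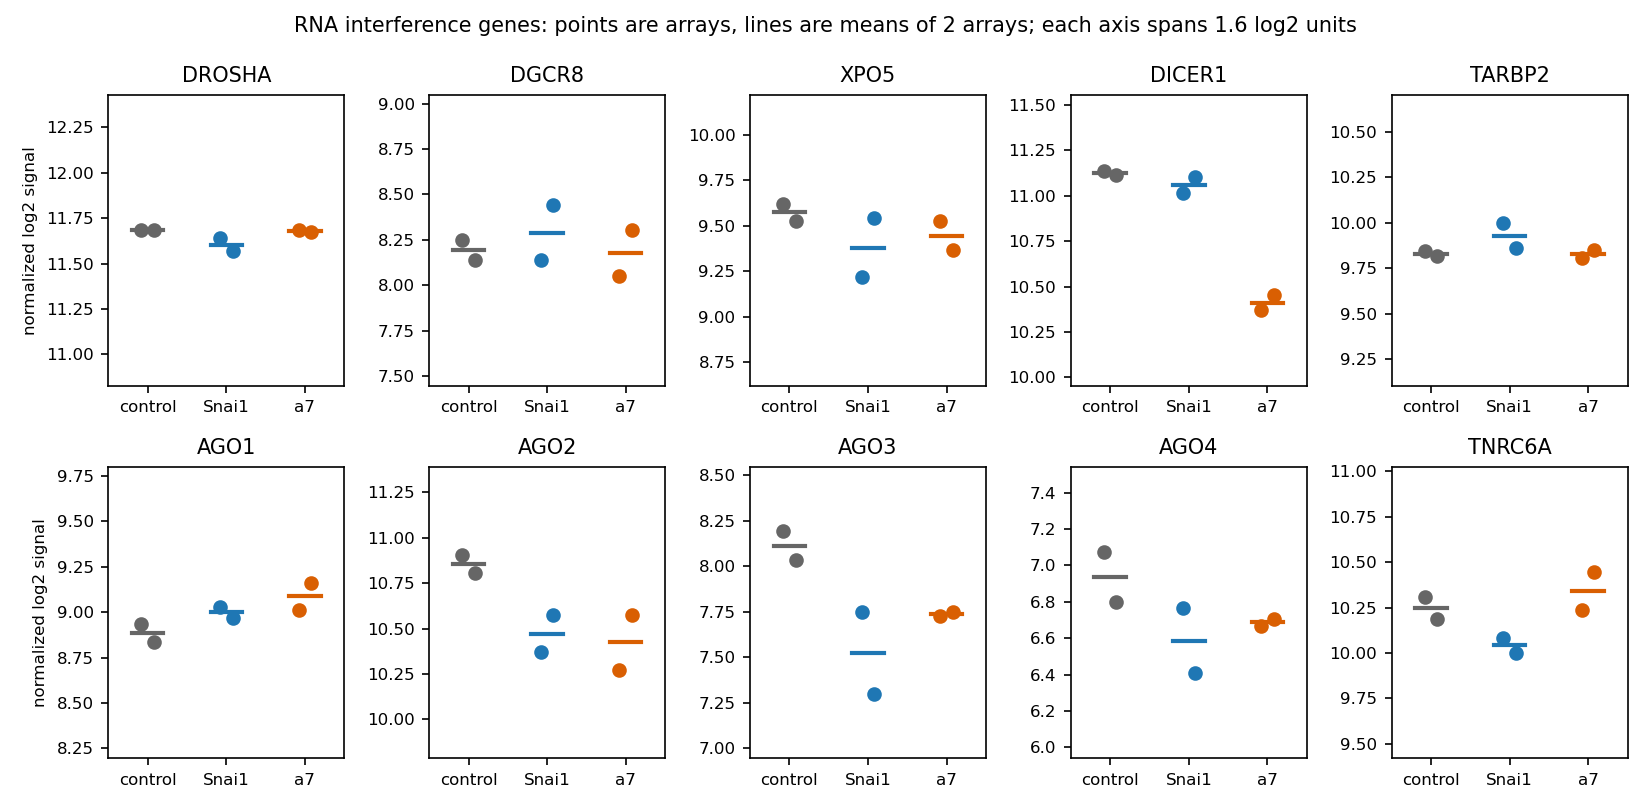
Normalized log2 signal (vertical axis) of the brightest probe of each of the 10 genes on each of the 6 arrays (points) in control, Snai1 and ncRNA-a7 (a7) siRNA groups, with lines at the means of 2 arrays; each panel spans the same log2 range but starts at its own level, so levels are not comparable between genes. For DICER1 both ncRNA-a7 arrays lie below the other 4 arrays, for AGO2 and AGO3 both control arrays lie above the other 4, and for DGCR8 the groups overlap.

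The nuclear step showed no call. DROSHA, the nuclear ribonuclease, had scanner signals of 3220.2 and 3795 in control, 3638 and 2507 with Snai1 siRNA, and 3357 and 3174 with ncRNA-a7 siRNA. After normalization its arrays spread little and the ncRNA-a7 arrays overlapped those of control. Its log2 fold change was -0.08 (adjusted p = 0.731) with Snai1 siRNA and -0.01 with ncRNA-a7 siRNA, the latter with a 95% interval of -0.25 to 0.24 in the limma fit. A dimmer DROSHA probe read 152 and 179 in control, 141 and 139.6 with Snai1 siRNA, and 169.5 and 156 with ncRNA-a7 siRNA. It gave -0.31 (adjusted p = 0.377 over all probes, limma) with Snai1 siRNA and -0.00 with ncRNA-a7 siRNA.

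DGCR8, which holds the hairpin for DROSHA, had signals of 338 and 367 in control, 359 and 343 with Snai1 siRNA, and 317 and 366 with ncRNA-a7 siRNA. Arrays of all 3 groups overlapped, and the fold changes of 0.09 and -0.02 were within 1 standard error. XPO5, the exporter of the hairpins, read 796 and 886 in control, 712 and 662 with Snai1 siRNA, and 792 and 706 with ncRNA-a7 siRNA. Its log2 fold changes were -0.19 (adjusted p = 0.434, limma) and -0.13 (adjusted p = 0.617), and neither was called. Normalized values of the Snai1 and control arrays overlapped, while the ncRNA-a7 arrays lay just below both control arrays.

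DICER1, the cytoplasmic ribonuclease that makes mature microRNAs, gave the clearest difference among the 10 genes. Its brightest probe read 2192 and 2578 in control, 2398 and 1837 with Snai1 siRNA, and 1368 and 1418 with ncRNA-a7 siRNA. Both ncRNA-a7 arrays lay below all 4 other arrays, before and after normalization. The mean normalized log2 signals were 11.13 in control, 11.06 with Snai1 siRNA and 10.41 with ncRNA-a7 siRNA. Compared with control, ncRNA-a7 siRNA left the transcript 1.64-fold lower (adjusted p = 0.00234, limma). Compared with Snai1 siRNA it was 1.57-fold lower, a log2 difference of -0.65 ± 0.11 (SE, adjusted p = 0.00616, limma). With Snai1 siRNA its log2 fold change was -0.07 (adjusted p = 0.783).

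The fall against control was called under 17 of 17 alternative settings, with log2 fold changes from -0.80 to -0.45 and adjusted p up to 0.0382 (limma). The difference from Snai1 siRNA was called under 15 of 17, and not without Snai1 siRNA replicate 2 (-0.60, adjusted p = 0.0686) or with the mean of the gene's probes (-0.35, adjusted p = 0.0903).

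DICER1 has 3 further probes, and they did not all show the same size or sign of difference. Probe 2 read 888 and 959 in control, 1215 and 662 with Snai1 siRNA, and 616 and 628 with ncRNA-a7 siRNA. Its ncRNA-a7 arrays again lay below the other 4, with a log2 fold change against control of -0.57 that was not called over all probes (adjusted p = 0.118, limma). Probe 3 had signals of 153 and 205 in control, 151 and 147 with Snai1 siRNA, and 187 and 149.9 with ncRNA-a7 siRNA, and after normalization its ncRNA-a7 arrays overlapped control while the Snai1 arrays were lowest. It gave -0.07 with ncRNA-a7 siRNA and -0.30 with Snai1 siRNA. Probe 4, which failed the brightness filter, lay between 126 and 153 on all arrays and gave -0.16 and -0.21. For ncRNA-a7 against Snai1 siRNA probe 2 gave -0.62 (adjusted p = 0.101 over all probes, limma). Probes 3 and 4 gave 0.23 and 0.06 for that difference, of opposite sign, and none of these values was called. In the fit over all 48701 probes without a filter, the brightest probe was called against control (adjusted p = 0.0143, limma) and against Snai1 siRNA (adjusted p = 0.0352), where 1.95% and 1.19% of all probes were called. The first of these calls was lost without any 1 of the 4 control and ncRNA-a7 arrays, and the second without any 1 of the 6 arrays.

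The DICER1 window covers the 300 bases around the farthest upstream of its 5 starts in the RefSeq table (250 before, 50 after). DICER1 was chosen as the member whose level differed between both siRNAs. The letters searched for were the E-box CAGGTG, read CACCTG on the other strand, which Snai1 is known to bind. Against control, DICER1 gave -0.71 with ncRNA-a7 siRNA but only -0.07 with Snai1 siRNA (adjusted p = 0.783, limma), not called. Whether Snai1 acts on DICER1 was not tested. The window is chr14:95157961-95158260 of GRCh38.p14, minus strand, from RefSeq, and the capitals mark its 1 match. The windows of the other 4 DICER1 starts held no match.
DICER1 promoter: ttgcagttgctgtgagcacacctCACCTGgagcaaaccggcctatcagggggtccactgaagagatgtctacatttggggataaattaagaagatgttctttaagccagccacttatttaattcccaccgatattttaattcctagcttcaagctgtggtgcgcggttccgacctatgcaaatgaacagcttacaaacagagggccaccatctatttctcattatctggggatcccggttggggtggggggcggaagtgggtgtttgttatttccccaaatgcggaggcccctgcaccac
Searched on both strands, these 6 letters occur in 20.6% of 35116 windows of the same length. Among the members 9 had at least 1 window in the RefSeq table, and 2 of those 9, DICER1 and TARBP2, held the motif, in 2 of 15 windows. DICER1 with 5 windows and TARBP2 with 3 are also the members with more than 1. A match of letters is a description of the window and was not set against any binding data.

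TARBP2, the double-stranded RNA binding partner of DICER1, did not follow it. Its brighter probe read 916 and 1071 in control, 1205 and 814 with Snai1 siRNA, and 949 and 961 with ncRNA-a7 siRNA. The normalized ncRNA-a7 arrays overlapped control and the Snai1 arrays lay above it by a small margin, with log2 fold changes of -0.00 and 0.10. The second probe, with 449 and 523 in control, 536 and 528 with Snai1 siRNA and 504 and 533 with ncRNA-a7 siRNA, gave 0.26 with Snai1 siRNA and 0.15 with ncRNA-a7 siRNA. None of these 4 values was called.

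**Figure D2:**
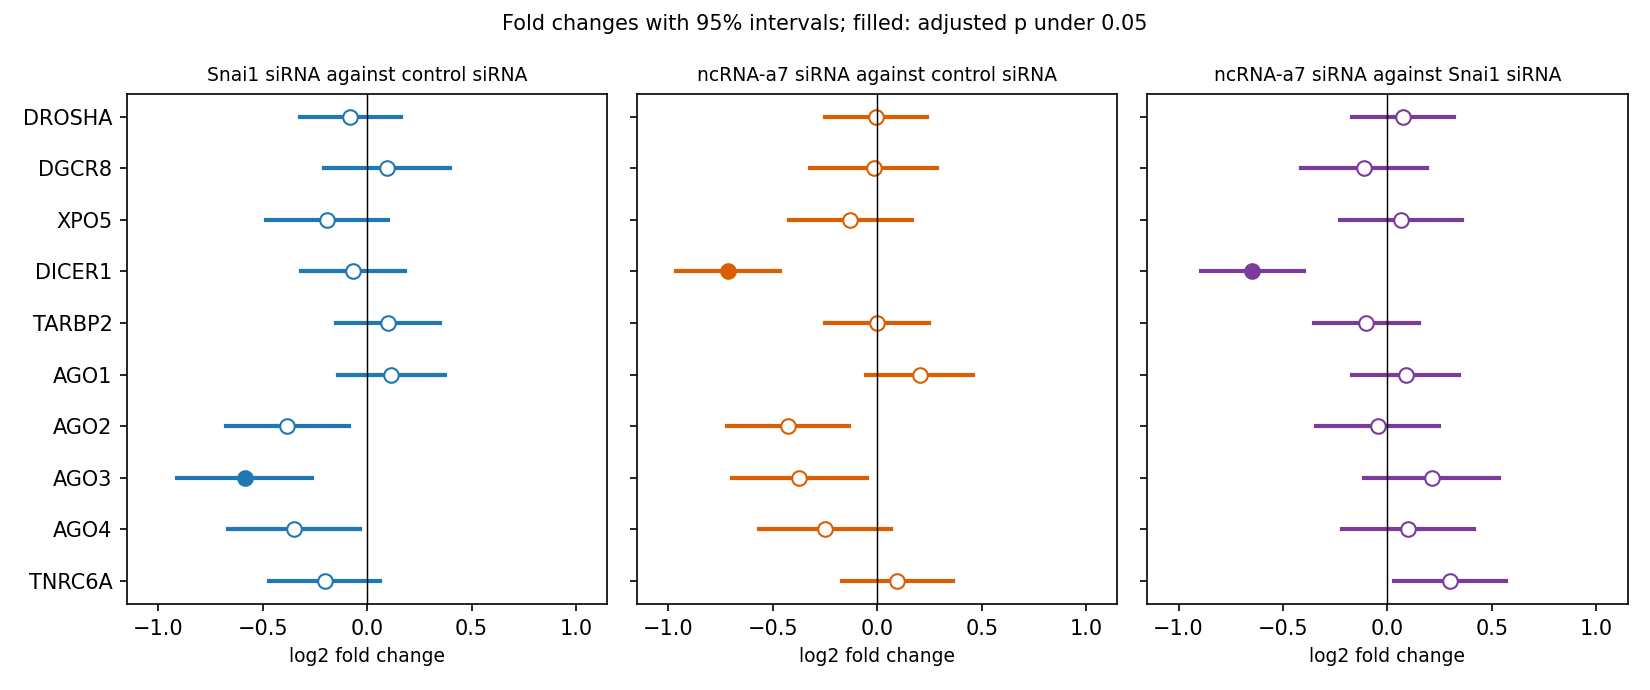
Log2 fold change (horizontal axis) of each of the 10 genes in 3 comparisons, with 95% intervals from the limma fit and filled points where the adjusted p was under 0.05. The filled points are AGO3 with Snai1 siRNA at -0.59, DICER1 with ncRNA-a7 siRNA at -0.71 and DICER1 between both siRNAs at -0.65.

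The 4 Argonautes, which hold the guide strand, lay on both sides of control. AGO1, linked mostly to translational repression and decay, was the only one above control, with signals of 509 and 566 in control, 629 and 464 with Snai1 siRNA, and 571 and 618 with ncRNA-a7 siRNA. Its normalized arrays lay above control in both groups by little, with log2 fold changes of 0.12 and 0.20 (adjusted p = 0.327 for the latter, limma), neither called.

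AGO2, the slicing Argonaute, read 1868 and 2064 in control, 1549 and 1291 with Snai1 siRNA, and 1282 and 1540.1 with ncRNA-a7 siRNA. All 4 arrays of the targeting siRNAs lay below both control arrays. The log2 fold change was -0.38 ± 0.13 (SE) with Snai1 siRNA (unadjusted p = 0.0153, adjusted p = 0.106, limma) and -0.43 ± 0.13 with ncRNA-a7 siRNA (unadjusted p = 0.00813, adjusted p = 0.0687, limma), and neither passed the threshold. Between both siRNAs the difference was -0.05. Both values were called without background correction, among probes brighter than 75% of all and with a trended, robust variance prior, and that of ncRNA-a7 siRNA also without its replicate 2.

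AGO3, an Argonaute with slicing reported for some guides, read 328 and 344 in control, 283 and 193 with Snai1 siRNA, and 267 and 267 with ncRNA-a7 siRNA. Both groups lay below control, and the 2 Snai1 arrays were further apart than the arrays of the other groups. The transcript was 1.50-fold lower with Snai1 siRNA (adjusted p = 0.0285, limma), while the log2 fold change with ncRNA-a7 siRNA was -0.37 (adjusted p = 0.142, limma) and not called. The difference between both siRNAs was 0.21 and was not called either. The call with Snai1 siRNA was lost without Snai1 siRNA replicate 2 (-0.37, adjusted p = 0.249), without control replicate 1 (-0.51, adjusted p = 0.226) and without control replicate 2 (-0.66, adjusted p = 0.0848), and under 4 other settings. A second AGO3 probe read 250.3 and 279 in control, 270.0 and 204 with Snai1 siRNA, and 233 and 248 with ncRNA-a7 siRNA, and its log2 fold changes were -0.15 (adjusted p = 0.726, limma) and -0.15 (adjusted p = 0.714).

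AGO4, whose protein is not known to slice, was the dimmest member and lay near the brightness filter. It read 182 and 168 in control, 162 and 135 with Snai1 siRNA, and 156 and 154 with ncRNA-a7 siRNA. Both groups lay below the control arrays, with log2 fold changes of -0.35 (adjusted p = 0.168, limma) and -0.25 (adjusted p = 0.326, limma), neither called; at this signal the offset makes fold changes too small. AGO4, AGO1 and AGO3 are direct neighbours on chromosome 1, between CLSPN and TEKT2 in the RefSeq order, and with Snai1 siRNA they gave -0.35, 0.12 and -0.59.

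The AGO3 start region is shown as that of the only member called with Snai1 siRNA (chr1:35930855-35931154 of GRCh38.p14, plus strand, RefSeq, 250 bases before the start to 50 after). It has no capitals because neither CAGGTG nor CACCTG is in this window, which says nothing about binding of the factor.
AGO3 promoter: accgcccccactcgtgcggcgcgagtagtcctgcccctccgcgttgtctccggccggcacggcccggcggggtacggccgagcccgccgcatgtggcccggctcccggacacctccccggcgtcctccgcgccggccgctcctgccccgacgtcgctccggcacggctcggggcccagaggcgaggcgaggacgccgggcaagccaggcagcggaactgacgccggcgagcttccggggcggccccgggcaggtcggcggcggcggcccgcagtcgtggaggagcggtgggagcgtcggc

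TNRC6A, the GW182 protein that links Argonaute to the deadenylases, was not called in any comparison. Its brightest probe read 1238 and 1371 in control, 1277 and 888 with Snai1 siRNA, and 1251 and 1412 with ncRNA-a7 siRNA. The normalized Snai1 arrays lay below the other 4, with -0.20 against control, while ncRNA-a7 siRNA gave 0.10. The difference between both siRNAs was 0.30 (unadjusted p = 0.0309, adjusted p = 0.165, limma), with the ncRNA-a7 arrays higher. Its 2 further probes gave -0.14 and -0.18 for that difference, of opposite sign, and read 181 to 208 and 149.6 to 173 over all arrays.

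**Figure D3:**
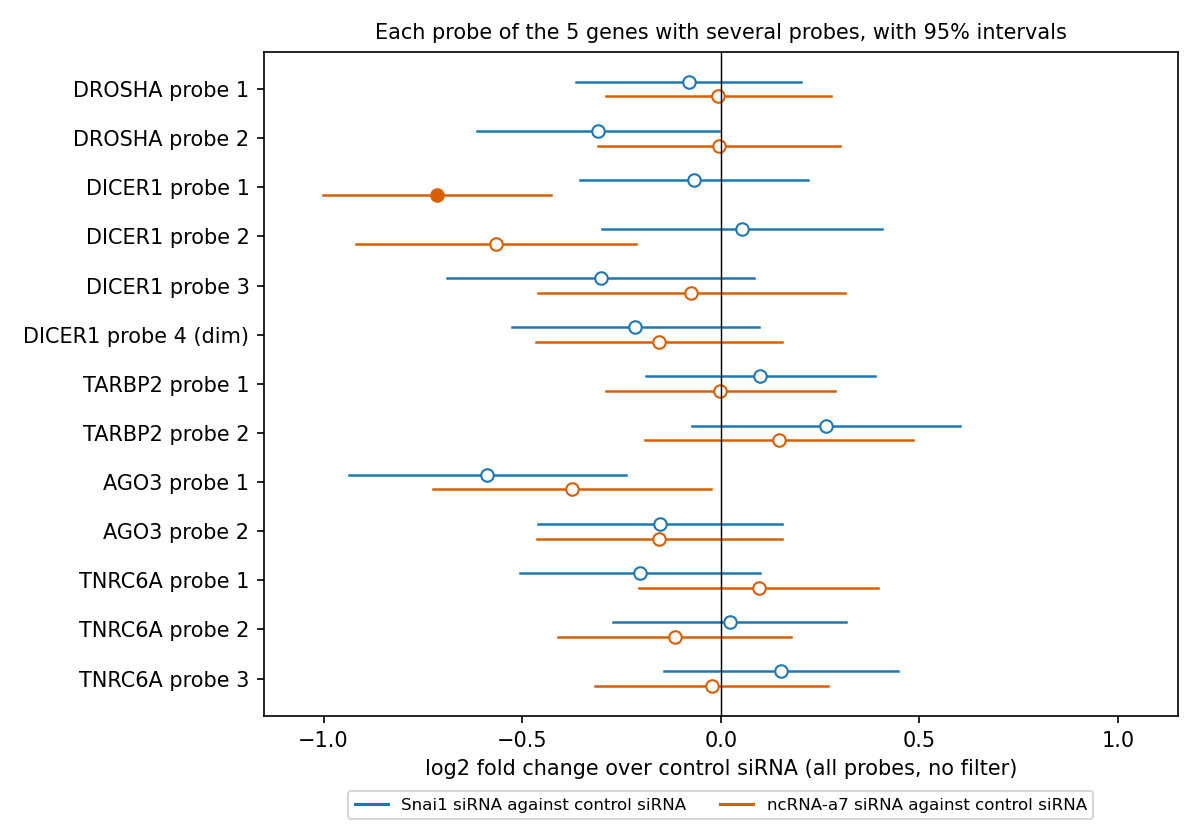
Log2 fold change over control siRNA (horizontal axis) for each probe of the 5 genes with several probes, from the limma fit over all 48701 probes without a filter, with 95% intervals; points are filled where the adjusted p was under 0.05. Only DICER1 probe 1 with ncRNA-a7 siRNA is filled, at -0.71, and probes 3 and 4 of DICER1 lie nearer 0.

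Over all 18 probes of the members, 17 passed the brightness filter. In the fit over all probes 0 of 18 were called with Snai1 siRNA (1.94% of all probes), 1 with ncRNA-a7 siRNA and 1 between both siRNAs. For Snai1 siRNA the AGO3 probe came nearest in that fit, at an adjusted p of 0.0973 (limma).

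**Figure D4:**
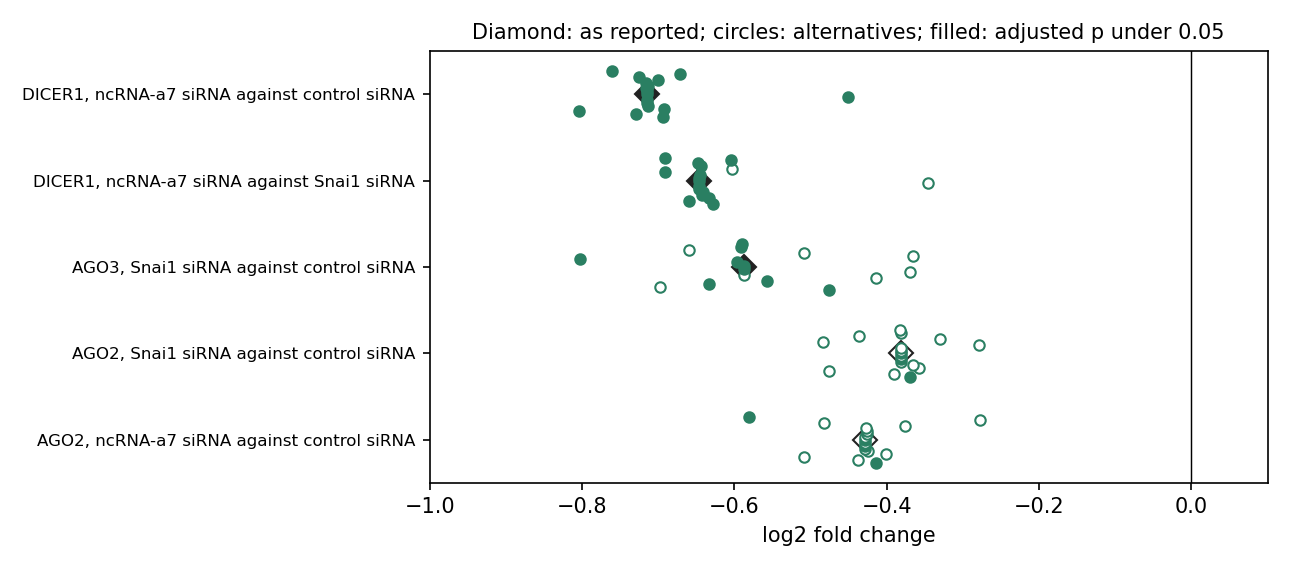
Log2 fold change (horizontal axis) of DICER1, AGO2 and AGO3 in the named comparisons as reported (diamonds) and under each alternative setting (circles), filled where the adjusted p was under 0.05. DICER1 against control is filled throughout, between -0.80 and -0.45, while circles of AGO3 and AGO2 are partly open.

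Genes that act beside the machinery were described by the same fit, in lists drawn up by role. The background for their counts is the share of all features called, 9.15% with Snai1 siRNA and 9.83% with ncRNA-a7 siRNA. These shares hold for the settings as reported. Calls over all features also changed with the setting, so list counts under other settings have no background share beside them. Of the partners of DROSHA and the regulators of primary transcripts 17 were tested, and 1 rose with Snai1 siRNA and 1 fell with ncRNA-a7 siRNA. METTL3, the methyltransferase whose adenosine mark is known to help DGCR8 find primary microRNAs, read 2057 and 2568 in control, 2533 and 1799 with Snai1 siRNA, and 1336 and 1463 with ncRNA-a7 siRNA. Like those of DICER1, its ncRNA-a7 arrays lay below all others. METTL3 was 1.58-fold lower than control (log2 -0.66 ± 0.12 SE, adjusted p = 0.00466, limma) and 1.59-fold lower than with Snai1 siRNA, but the first call was lost without control replicate 2 and the second without Snai1 siRNA replicate 2, with adjusted p up to 0.051 and 0.0515. SMAD5, a signalling factor reported to assist DROSHA, rose 1.46-fold with Snai1 siRNA. That call was lost without either control array or Snai1 siRNA replicate 2, with median scaling, no filter or the mean of the gene's probes.

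Among 14 tested genes of nuclear export and of the DICER1 complex, 0 were called with Snai1 siRNA. With ncRNA-a7 siRNA LIN28B, which blocks processing of let-7 precursors, was 1.49-fold lower (adjusted p = 0.0109, limma), and ZSWIM8, a ubiquitin ligase adaptor of target-directed microRNA decay, was 1.50-fold higher. The LIN28B call was lost without control replicate 1 or ncRNA-a7 siRNA replicate 2, or with no filter. That of ZSWIM8 was lost without either control array or ncRNA-a7 siRNA replicate 2, with median scaling or the mean of its probes. A second ZSWIM8 probe gave -0.10.

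In the list of Argonaute loading, stability and import 7 of 25 genes fell and 1 rose with ncRNA-a7 siRNA (9.83% of all features called), with a median log2 fold change of -0.30 against -0.01 for all features. The count of 7 was 3 at an offset of 16 or with no filter and 11 without background correction. All features called with ncRNA-a7 siRNA numbered 1020, 821 and 2872 in those settings, against 1940 here. The count was also lower without either control array or without ncRNA-a7 siRNA replicate 1, where fewer features were called in all. HSP90AB1, the chaperone that keeps Argonaute open for the duplex, fell 1.73-fold (adjusted p = 0.00134, limma) and was called under 17 of 17 alternatives. Its co-chaperone PTGES3 (p23) was 1.57-fold lower and AJUBA, a LIM protein of Argonaute complexes, 1.64-fold lower. PTGES3 lost its call without control replicate 2, with log2 fold changes from -0.78 to -0.51, and AJUBA, whose second probe gave -0.34 and was not called, without either control array or ncRNA-a7 siRNA replicate 1. With Snai1 siRNA 3 of 25 fell and 1 rose (9.15% of all features called), with a median of -0.09, and the 3 became 0 without control replicate 1 and 1 without Snai1 siRNA replicate 2. EGFR, the receptor kinase known to phosphorylate AGO2, rose 1.67-fold, while WTIP, a relative of AJUBA, fell 1.67-fold and TRIM65, a ubiquitin ligase reported to act on TNRC6A, fell 1.87-fold. A second EGFR probe gave 0.19, and the calls of WTIP and TRIM65 were lost without control replicate 1 and without 1 Snai1 array (replicate 1 for WTIP, replicate 2 for TRIM65).

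Among 32 genes of the GW182 paralogues, deadenylation and decapping, 1 rose and 3 fell with Snai1 siRNA (9.15% of all features called) and 2 fell with ncRNA-a7 siRNA (9.83%), shares near or below the background. The 3 became 1 without either control array or Snai1 siRNA replicate 2, at an offset of 16 or with no filter. The 2 became 1 without control replicate 2 or ncRNA-a7 siRNA replicate 1. DCP2, the decapping enzyme, read 1926 and 2262 in control, 1742 and 1122 with Snai1 siRNA, and 1087 and 1053 with ncRNA-a7 siRNA. All arrays of both siRNAs lay below control, with ncRNA-a7 lowest. DCP2 was 1.92-fold lower with ncRNA-a7 siRNA (adjusted p = 0.000538, limma, called under 17 of 17 alternatives). With Snai1 siRNA it was 1.40-fold lower (adjusted p = 0.0222, limma). That call was lost without either control array or Snai1 siRNA replicate 2, at an offset of 16 or with no filter.

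DDX6, the helicase that joins the deadenylase complex to decapping, was 1.58-fold lower with ncRNA-a7 siRNA, a call lost without control replicate 2 or ncRNA-a7 siRNA replicate 1. DDX6 was also called lower with Snai1 siRNA, a call that held in 9 of 16 alternatives. DCP1A, the activator of DCP2, moved the other way with Snai1 siRNA, 1.80-fold higher (adjusted p = 0.000865, limma), and CNOT8, a deadenylase subunit, was 1.62-fold lower with -0.92 at its second probe. Both were called under 17 of 17 alternatives.

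The PIWI clade, the germline relatives of the Argonautes, had 4 of 9 genes above the filter and 0 calls in any comparison. Of 13 other double-stranded RNA binding proteins, 1 rose and 1 fell with Snai1 siRNA, and 2 rose with ncRNA-a7 siRNA. OAS1, an interferon-induced sensor of double-stranded RNA, rose with both, 1.36-fold with Snai1 siRNA and 1.43-fold with ncRNA-a7 siRNA, and its relative OAS3 rose 1.45-fold with ncRNA-a7 siRNA. SIDT2, a membrane protein reported to transport double-stranded RNA, fell 1.39-fold with Snai1 siRNA. The ncRNA-a7 calls were lost without either control array or ncRNA-a7 siRNA replicate 2, at an offset of 16, with median scaling or no filter. The Snai1 calls were lost without any 1 of the 4 control and Snai1 arrays, at an offset of 16 or with no filter. The Snai1 call of OAS1 was also lost with median scaling or the mean of its probes.

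**Figure D5:**
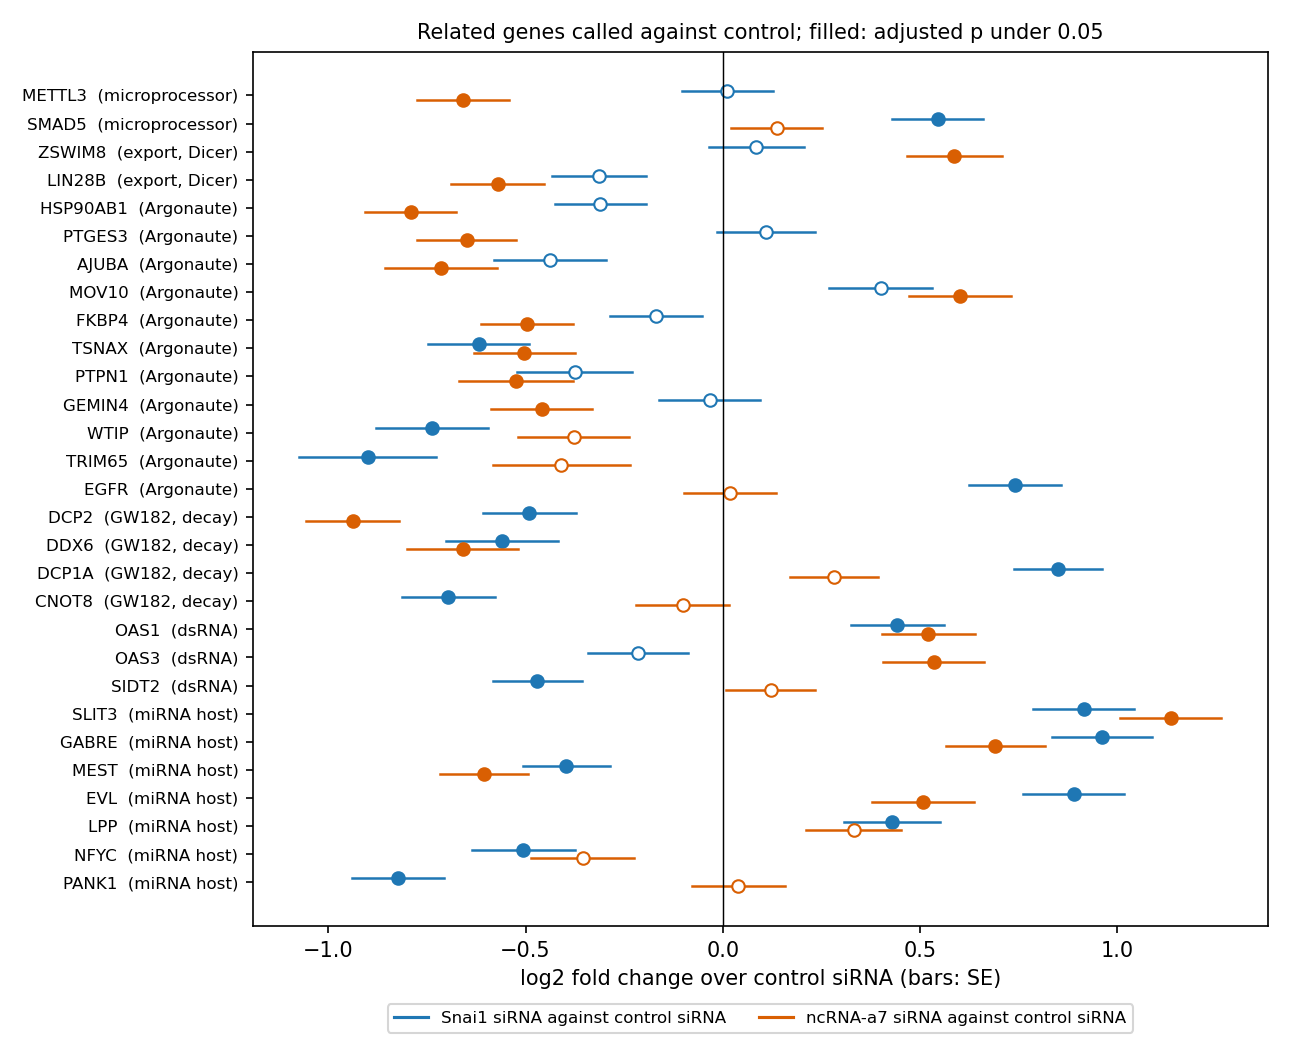
Log2 fold change over control siRNA (horizontal axis, bars are SE) of the listed genes called in at least 1 comparison with control, with the list of each in brackets; filled points have an adjusted p under 0.05. DCP2 with ncRNA-a7 siRNA lies at -0.94 and SLIT3 at 1.14, and of the Argonaute list only MOV10 lies above 0 among those called with ncRNA-a7 siRNA.

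The array measures messenger RNA and not mature microRNAs, but some host transcripts that carry microRNAs in their introns were read. Of 25 tested hosts 4 rose and 3 fell with Snai1 siRNA, and 3 rose and 1 fell with ncRNA-a7 siRNA, with medians of 0.05 and 0.04, where 9.15% and 9.83% of all features were called. The 3 that fell with Snai1 siRNA became 1 without any 1 of the 4 control and Snai1 arrays, at an offset of 16 or with no filter. The 4 calls with ncRNA-a7 siRNA became 1 without control replicate 1. The mature sequences below are those carried by the hosts with the smallest p, with PANK2 added for its shared seed. They are from RefSeq (GRCh38.p14), and the capitals mark the seed, bases 2 to 8, that pairs with targets.
miR-107 (in PANK1, chr10:89592756-89592778, minus strand): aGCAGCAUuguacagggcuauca
miR-103a-3p (in PANK2, chr20:3917541-3917563, plus strand): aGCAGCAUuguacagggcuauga
miR-218-5p (in SLIT3, chr5:168768211-168768231, minus strand): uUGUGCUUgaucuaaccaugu
miR-224-5p (in GABRE, chrX:151958628-151958652, minus strand): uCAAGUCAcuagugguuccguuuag
miR-342-3p (in EVL, chr14:100109715-100109737, plus strand): uCUCACACagaaaucgcacccgu
miR-335-5p (in MEST, chr7:130496126-130496148, plus strand): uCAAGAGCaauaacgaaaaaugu
The first pair share the seed GCAGCAU, and this family is known as a regulator of DICER1. The other 4 each have a seed of their own.

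PANK1, the host of miR-107, read 981 and 1045 in control, 645 and 476 with Snai1 siRNA, and 992 and 1014 with ncRNA-a7 siRNA. Only the Snai1 arrays were low. PANK1 was 1.77-fold lower with Snai1 siRNA (adjusted p = 0.0014, limma) and 1.82-fold higher with ncRNA-a7 than with Snai1 siRNA (adjusted p = 0.00166, limma), each called under 17 of 17 alternatives. Of 2 further PANK1 probes, 1 gave -0.64 with Snai1 siRNA and was called, and 1 gave 0.09. PANK2, a host of miR-103a, gave 0.22 with Snai1 siRNA (adjusted p = 0.334, limma) and 0.03 with ncRNA-a7 siRNA (adjusted p = 0.912), neither called.

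SLIT3, a host of miR-218, read 154 and 183 in control, 284 and 236 with Snai1 siRNA, and 286 and 318 with ncRNA-a7 siRNA. All 4 arrays of the targeting siRNAs lay above control. SLIT3 rose 1.89-fold with Snai1 siRNA (adjusted p = 0.00129, limma) and 2.20-fold with ncRNA-a7 siRNA (adjusted p = 0.00029), while its second probe gave -0.14 and 0.18. GABRE, the host of miR-224, rose 1.95-fold and 1.61-fold, and EVL, the host of miR-342, rose 1.85-fold and 1.42-fold. A second GABRE probe gave 0.15 and -0.19 and was not called. For ncRNA-a7 siRNA the GABRE call was lost without control replicate 1 or with the mean of its probes. The EVL call was lost without either control array or ncRNA-a7 siRNA replicate 1, at an offset of 16, with median scaling or no filter. MEST, the host of miR-335, fell 1.52-fold with ncRNA-a7 siRNA, a call lost without control replicate 1. MEST was also called lower with Snai1 siRNA. That call held in 6 of 16 alternatives, with log2 fold changes from -0.50 to -0.24.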

How the data were processed

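The 10 genes and the related lists were chosen with earlier results of these data known. The deposited scanner table holds signal intensity per probe on a linear scale, not normalized, and the authors' deposited series values are the same intensities multiplied by a constant per array (0.783 to 1) that brings every array mean to 715. The software and array build are not given in the sources used here. Groups and replicate numbers came from the labels. Probes were named through the platform annotation: 28044 had 1 symbol, 13 several and 20644 none, and unnamed probes were kept under their IDs. ncRNA-a7 was looked up as TRERNA1.

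Intensities were corrected with normexp (offset 50), quantile normalized and put on the log2 scale in R 4.3.3 with limma 3.58.1. Probes with a mean above the median probe were kept (24350), and each gene was taken at its brightest probe, which gave 19730 features. All 6 arrays entered 1 fit (lmFit, eBayes, 3 residual degrees of freedom), with Benjamini-Hochberg adjustment over all features. A second fit used all 48701 probes. With 2 arrays a group the number of arrays limits the precision, and the typical SE of a log2 fold change was 0.13. Fold changes understate dim genes because of the offset. Scripts were tested on simulated data. Of each related list, up to 3 called genes with the smallest p per comparison with control were named. Of the list genes called between both siRNAs, only METTL3 and PANK1 were given for that comparison. PANK2 and MOV10 were chosen after their values were seen. Figures were drawn with matplotlib 3.10.9. Alternatives covered background, offset, normalization, source table, filter, probe choice, variance prior, groups in the fit, a replicate block and leaving out each array.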

Additional observations from a re-analysis of the deposited data

Results flagged for a closer look

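The effect of ncRNA-a7 siRNA on DICER1 differed from that of Snai1 siRNA by -0.65 on the log2 scale (adjusted p = 0.00616, limma), with both ncRNA-a7 arrays below both Snai1 arrays. Both effects are taken against the same 2 control arrays, which drop out of their difference. Without Snai1 siRNA replicate 2 it was -0.60 and not called.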

How the results depend on the processing

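The DICER1 fall with ncRNA-a7 siRNA was called under all 17 alternatives, and the AGO3 and direct DICER1 calls were not. Called members with Snai1 siRNA numbered 0 with the authors' scaled values, the mean of a gene's probes, no filter or an offset of 16, and 2 without background correction or with a trended robust prior. With ncRNA-a7 siRNA they numbered 2 without background correction, among probes brighter than 75% and with the trended prior, and between both siRNAs 0 with the mean of probes. Leaving out 1 array gave 0 to 1, 1 to 2 and 0 to 1 members. AGO3 with Snai1 siRNA was -0.41 with the authors' values (adjusted p = 0.0515, limma), -0.37 with the mean of probes (0.119), -0.59 with no filter (0.0954) and -0.70 at an offset of 16 (0.0846); among probes brighter than 75% it was not tested.

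For the fit over all probes the share called was worked out only for the settings as reported. The counts of this paragraph therefore have no background beside them. Over all probes, an alternative chosen after seeing the data, the members' probes called with Snai1 siRNA numbered 1 with median scaling, no background correction or the trended prior. With ncRNA-a7 siRNA they numbered 2 with median scaling, 3 without background correction or with the trended prior, and 0 at an offset of 16. Between both siRNAs they numbered 2 with the authors' values, no background correction or the trended prior, and 0 with median scaling, an offset of 16, only the groups compared or the replicate block. Leaving out 1 array gave 0, 0 to 1 and 0.

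Features called numbered 1064, 920 and 698 with median scaling, 976, 1020 and 565 at an offset of 16, 817, 821 and 496 with no filter, and 2719, 2943 and 2580 with the trended prior, against 1805, 1940 and 1598. Between both siRNAs they numbered 2484 without background correction and 2502 among probes brighter than 75%. Leaving out 1 array gave 451 to 1931, 547 to 1781 and 351 to 1146. The lowest counts came without control replicate 1 for both comparisons with control and without Snai1 siRNA replicate 2 between both siRNAs.

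Same-numbered arrays did not deviate together (correlations -0.07, -0.01 and 0.01). A pairing with little shared effect would not show in this, and the labels do not say whether the numbers pair samples. With the replicate block 1657, 1720 and 1416 features were called, and each member call kept its side of the threshold at the gene level.

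Signs that turned were all of members not called. With ncRNA-a7 siRNA they were DGCR8 (0.013) and TARBP2 (0.0063) with the authors' values, DROSHA (0.0035) and TARBP2 (0.030) with cyclic loess, and TARBP2 (0.073) and TNRC6A (-0.014) with the mean of probes, which also gave TNRC6A -0.0047 between both siRNAs. Leaving out 1 array gave ranges across 0 with ncRNA-a7 siRNA for DGCR8 (-0.14 to 0.11), TARBP2 (-0.023 to 0.021) and TNRC6A (-0.0097 to 0.20), and with Snai1 siRNA for DGCR8 (-0.059 to 0.24). Between both siRNAs they were AGO2 (-0.20 to 0.10), AGO3 (-0.013 to 0.43), AGO4 (-0.081 to 0.28), DGCR8 (-0.26 to 0.041) and XPO5 (-0.097 to 0.23). The cause of these shifts was not tested. Signals near the dimmest probes, as for AGO4 and 2 of 4 DICER1 probes, limit what could be seen there.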
